A study of Mus musculus with 2 samples.

Results

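The genes that bring glucose into the heart muscle cell, break it down to pyruvate and lactate, and store it as or release it from glycogen were followed in 4 mouse hearts. The set is defined by gene symbol, from what its products do, and holds 34 genes of the 16390 with a name on the array. All 34 had a probe, 33 of them a single one, and all 34 were detected in every heart, as were 11701 of the 16390. Detection was judged against blank spots. For 12 of the 34 the surround of the spot was above 90% of the spot's brightness in at least 1 heart. RNA came from the hearts of 6-month-old male mice on the C57BL/6J background. Control mice and mice with a knockout of the deacetylase Sirt1 restricted to cardiomyocytes had either been fed freely (ad libitum, AL) for 3 months or been kept for 3 months on a caloric restriction of 40% (CR). The labels name neither the Cre line nor the deleted part of Sirt1, and the control mice are called control or WT, with no word on whether they carry a Cre or floxed allele.

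The hearts were compared on 2 arrays with 2 colours each, one array per genotype. The AL heart carried Cy5, read at 635 nm, and the CR heart Cy3, read at 532 nm, on both arrays. The values are thus from 1 heart in each of the 4 conditions, no p-value or SD between mice can be given, and every difference describes these hearts. Diet and dye cannot be told apart in CR over AL, and genotype and array cannot be told apart in knockout over control. The knockout response minus the control response cancels a dye bias only as far as it is the same on the 2 arrays. Levels are log2 signals of 1 probe and are compared between hearts, never between genes; differences are log2 differences, where 0.58 is 1.5-fold and 1 is 2-fold. A gene was called higher or lower at 1.5-fold. Spots of the same positive control on an array had log2 ratios with an SD of at most 0.060 (control) and 0.087 (knockout), which covers spot noise only. Sirt1 itself was at 7.11 (AL) and 7.53 (CR) in the control pair and at 7.07 and 7.51 in the knockout pair; where its probe lies relative to the deletion is not known here, so it checks no label. Of the cardiomyocyte markers on the array, 10 of 10 were detected in all 4 hearts. So were 11701 of all 16390 genes, 6 of 6 endothelial markers and 6 of 6 fibroblast markers. Detection alone therefore does not check the labelled tissue.

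Glucose enters the cardiomyocyte through Slc2a1, which works without insulin, and through Slc2a4, which insulin and contraction bring to the cell surface. Hexokinases trap it as glucose 6-phosphate, which either runs down glycolysis, with phosphofructokinase as the main control point, or is stored through UDP-glucose in glycogen. The adult heart takes most of its energy from fatty acids, and glucose use increases in the fetal, hypoxic or overloaded heart.

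Most of the 34 genes had their lowest level in the control heart on free feeding and their highest in a knockout heart. The control AL heart was the lowest of the 4 for 24 of the 34 genes, against 29.1% of all 11701 genes detected throughout and 36.1% of the genes at or above the median signal of the 34. The highest level was in one of the knockout hearts for 29 of the 34, against 52.1% of all genes. Both knockout hearts lay above both control hearts for 25 genes (26.8% of all genes) and below both for 2 genes, the phosphofructokinase-2 isozyme Pfkfb1 and the phosphorylase kinase subunit Phkg1 (24.6%). With the arrays scaled to an equal median in place of matching their whole distributions (Aquantile), the count above was 18 (23.5%) and the count below 4 (29.2%). With the local background subtracted from each spot they were 17 (37.7%) and 8 (36.6%); the control AL heart was then the lowest for 14 of the 34 (18.9%), so no longer for most, and a knockout heart the highest for 23 (50.3%).

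**Figure D1:**
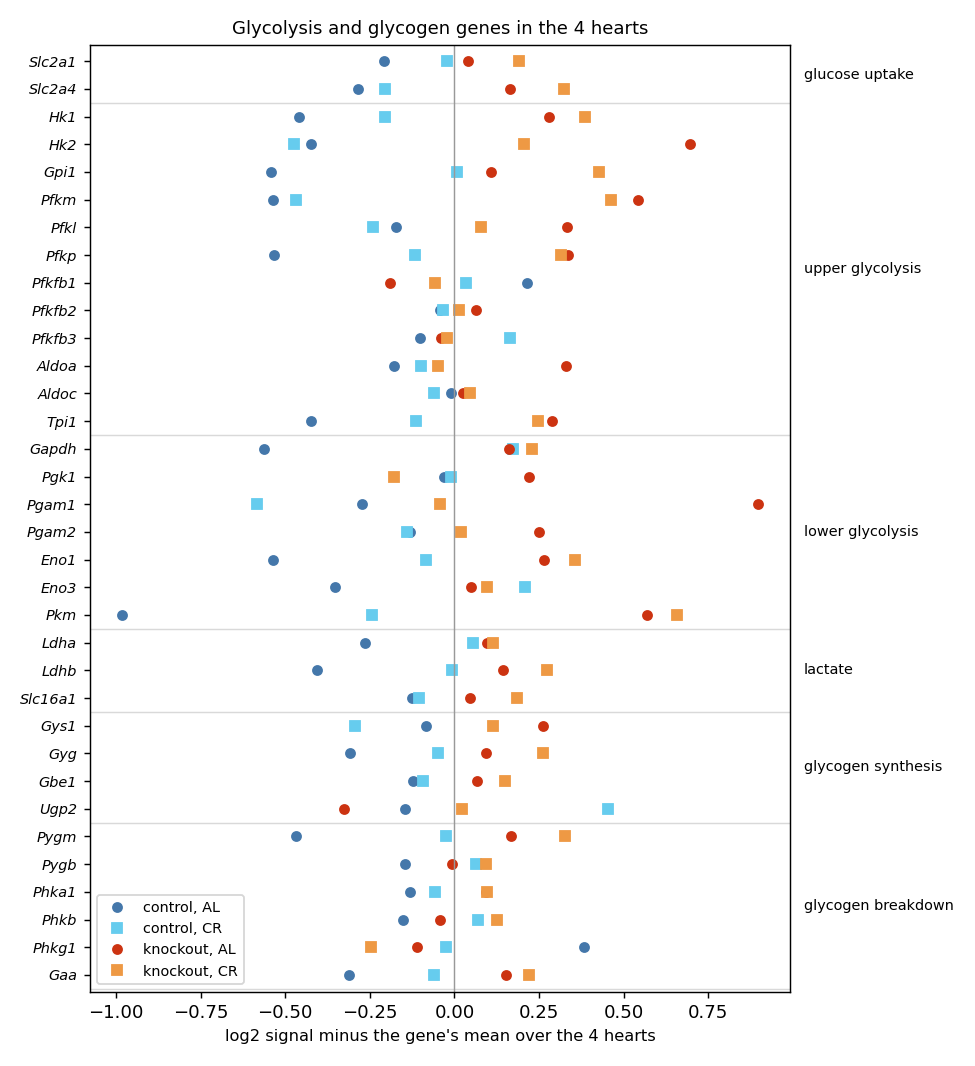
Log2 signal of each of the 34 genes in the 4 hearts, as the difference from that gene's mean over the hearts (horizontal axis), with genes grouped by role on the vertical axis and 1 point for each heart. The control AL points lie farthest left for 24 genes, and 1 of the knockout points lies farthest right for 29.

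Under free feeding, genes of glycolysis were higher in the knockout heart than in the control heart. Of the 34 genes, 31 lay above 0 and 11 were at least 1.5-fold higher (32.4%), where 2.58% of all 12786 genes compared were; none was 1.5-fold lower, where 1.78% of all genes were. The median over the 34 was 0.40 and over all genes 0.01. Bright spots differed more between the arrays: of 698 genes at or above the median signal of the 34, 11.2% were called higher and 5.87% lower. With a normexp offset of 0, which shrinks dim differences less, 12 of the 34 were called higher and 1 lower, against 6.79% and 5.39% of all genes. The calls sat in glycolysis itself, with 6 of 12 genes of the upper part and 4 of 7 of the lower part, and in glycogen breakdown with 1 of 6. No gene of glucose uptake, lactate handling or glycogen synthesis was called.

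Pkm, whose products include the M1 and M2 forms of pyruvate kinase, had the largest difference of the set. Its probe, listed under the older name Pkm2, was at 9.28 (AL) and 10.02 (CR) in the control pair and at 10.83 (AL) and 10.92 (CR) in the knockout pair. The knockout hearts did not overlap the control hearts, and the difference was 1.55 under AL (2.94-fold) and 0.90 under CR. The name of the probe does not show which splice form it reads.

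Pgam1, the phosphoglycerate mutase found in most tissues, was at 10.19 (control AL), 9.88 (control CR), 11.36 (knockout AL) and 10.42 (knockout CR). The knockout AL heart stood well above the other three, and the knockout was higher by 1.17 under AL and by 0.54 under CR. Its muscle counterpart Pgam2 was higher by 0.38 and 0.16.

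Hk2, the hexokinase that insulin induces in muscle and heart, had levels of 10.11 (AL) and 10.06 (CR) in the control pair and of 11.23 and 10.74 in the knockout pair. That gave differences of 1.13 under AL and 0.69 under CR. Hk1, the more widespread hexokinase, was at 6.55 and 6.81 in the control hearts and at 7.29 and 7.40 in the knockout hearts, higher by 0.74 and 0.59. Both hexokinases were thus called under both diets, and for both the control and knockout hearts did not overlap.

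Pfkm, the muscle subunit of phosphofructokinase, had levels of 11.09 (AL) and 11.16 (CR) in the control pair and of 12.17 and 12.09 in the knockout pair. The differences of 1.07 and 0.93 were nearly the same size under both diets. Pfkp, the platelet subunit, was at 7.04 (AL) and 7.46 (CR) in the control pair and at 7.91 and 7.89 in the knockout pair, higher by 0.87 and 0.43. The liver subunit Pfkl was higher by 0.51 and 0.32 and was not called. The regulators that make and break down fructose 2,6-bisphosphate, the activator of phosphofructokinase, were less far apart: Pfkfb1 differed by -0.40 with AL and by -0.09 with CR, Pfkfb2, the heart form, at 0.10 and 0.05, and Pfkfb3 at 0.06 and -0.19.

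The other calls under AL were below 1 on the log2 scale. How many genes passed 2-fold under AL depended on the processing. It was 4 here, 6 with a normexp offset of 0, where Hk1 was at 1.29 and Pfkp at 1.23, and 1 with the arrays scaled to an equal median. Eno1, the widespread enolase, stood at 9.25 in the control and 10.05 in the knockout under AL (0.80), and at 9.70 and 10.14 under CR (0.44). Gapdh, the enzyme that makes NADH in glycolysis, stood at 7.73 and 8.46 with free feeding (0.73) and at 8.47 and 8.52 with restriction (0.06), so that the control AL heart stood alone below the other three. Tpi1, triose phosphate isomerase, was at 11.46 and 12.17 (0.71) and at 11.77 and 12.13 (0.37). Gpi1, which turns glucose 6-phosphate into fructose 6-phosphate, was at 10.07 and 10.72 (0.65) and at 10.62 and 11.04 (0.42). Pygm, the muscle glycogen phosphorylase, was at 9.91 and 10.54 (0.64) and at 10.35 and 10.70 (0.35). For Tpi1, Gpi1, Pygm and Eno1 both knockout hearts lay above both control hearts.

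The transporters and the genes of glycogen storage were less far apart. Slc2a4 was higher in the knockout by 0.45 under AL and 0.53 under CR, and Slc2a1 by 0.25 and 0.21. Glycogenin (Gyg), which primes the chain, was higher by 0.40 and 0.31, glycogen synthase (Gys1) by 0.35 and 0.41, and the branching enzyme (Gbe1) by 0.19 and 0.24. Ugp2, which makes the UDP-glucose they use, went the other way at -0.18 and -0.43. Ldhb, the lactate dehydrogenase subunit typical of heart, was higher by 0.55 and 0.28, Ldha by 0.36 and 0.06, and the lactate transporter Slc16a1 by 0.18 and 0.29.

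Under restriction the genotypes were closer. The median over the 34 genes was 0.26 (all genes 0.00), 28 lay above 0, and 4 were at least 1.5-fold higher (11.8%), where 1.45% of all 11960 genes and 4.73% of the genes as bright were. They were Pfkm, Pkm, Hk2 and Hk1, and all of them had been called under AL as well. None was 1.5-fold lower, against 1.09% of all genes and 2.72% of the genes as bright. With a normexp offset of 0 the counts were 5 higher and 0 lower, against 5.92% and 4.96%. In all, 28 of the 34 genes lay above 0 under both diets, against 38.6% of all genes; the 2 comparisons use different hearts but the same pair of arrays.

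**Figure D2:**
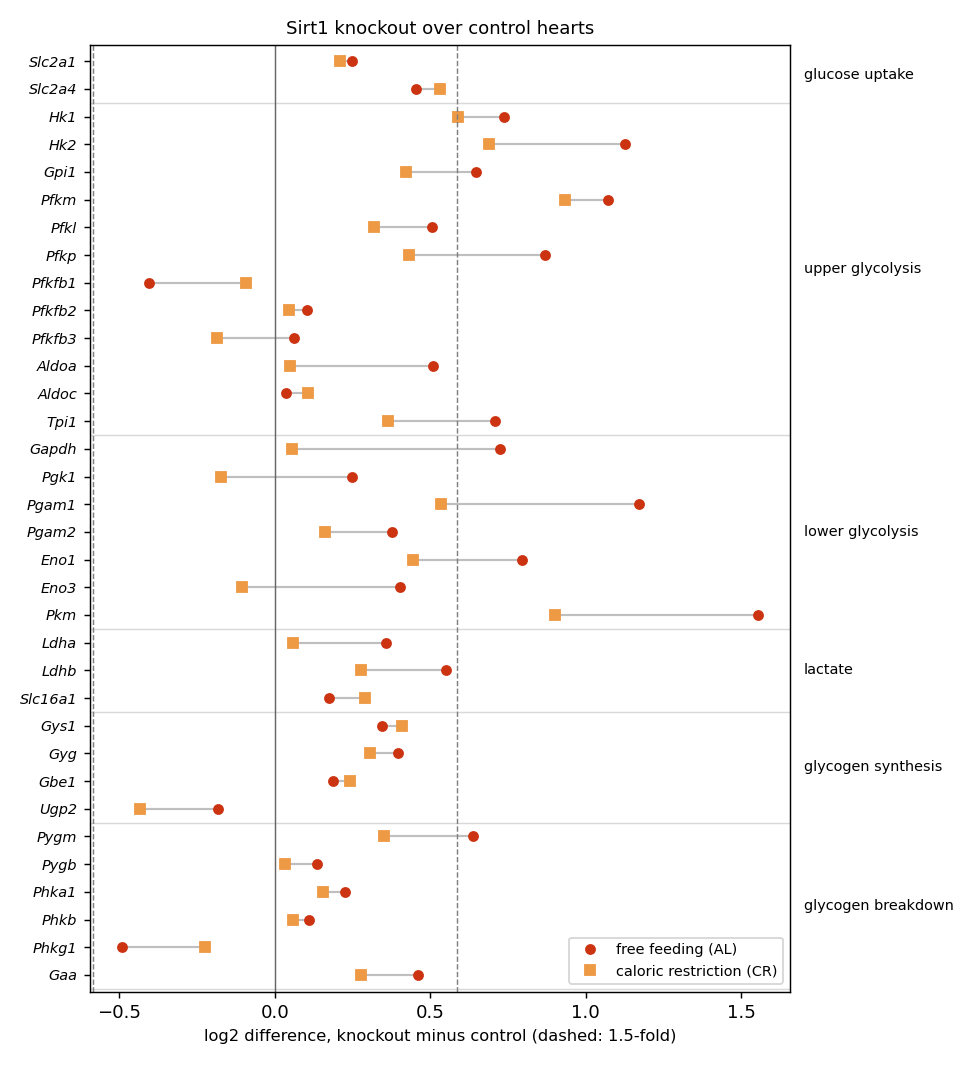
Log2 difference of knockout minus control hearts (horizontal axis) for each of the 34 genes under free feeding (circles) and caloric restriction (squares), with dashed lines at 1.5-fold. Pkm reaches 1.55 under AL, and 28 genes lie right of 0 under both diets.

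The size of the genotype differences rests on how the arrays were scaled and on the treatment of the local background. Scaled to an equal median, the median over the 34 genes was 0.23 under AL and 0.12 under CR, and the median over the genes as bright was -0.18 and -0.22 in place of 0.06 and 0.01. Then 8 genes were called higher and 0 lower under AL, without Gpi1, Tpi1 and Pygm, where 1.76% and 3.19% of all genes were. Under CR 2 genes (Pfkm and Pkm) were higher and 1 (Ugp2 at -0.62) lower, where 0.853% and 2.39% of all genes were. With the local background subtracted, 11 of the 34 were called higher and 8 lower under AL, where 9.67% and 9.54% of all genes were, and 11 higher and 6 lower under CR (11.1% and 10.4%). Hk1, Hk2, Pfkm and Eno1 kept their call under AL at 0.73, 1.51, 1.71 and 1.43, whereas Gpi1 turned to -1.78, Pkm to -1.37 and Pygm to -0.94. The brightness around the spots of these genes was high and uneven. Around the Gpi1 spot it was 7.56% of the spot's own in the control AL channel and 88.3% in the knockout AL channel, and around the Pkm spot 67.1% and 98.4%. Pgam1 was also called higher, but the surround of its spot was 99.9% of the spot in the control AL channel and 97.1% in the control CR channel, so almost no signal was left there and no size is given. Over all 34 genes and 4 channels it ran from 7.56% to 106% of the spot, with a median of 65.4%.

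**Figure D3:**
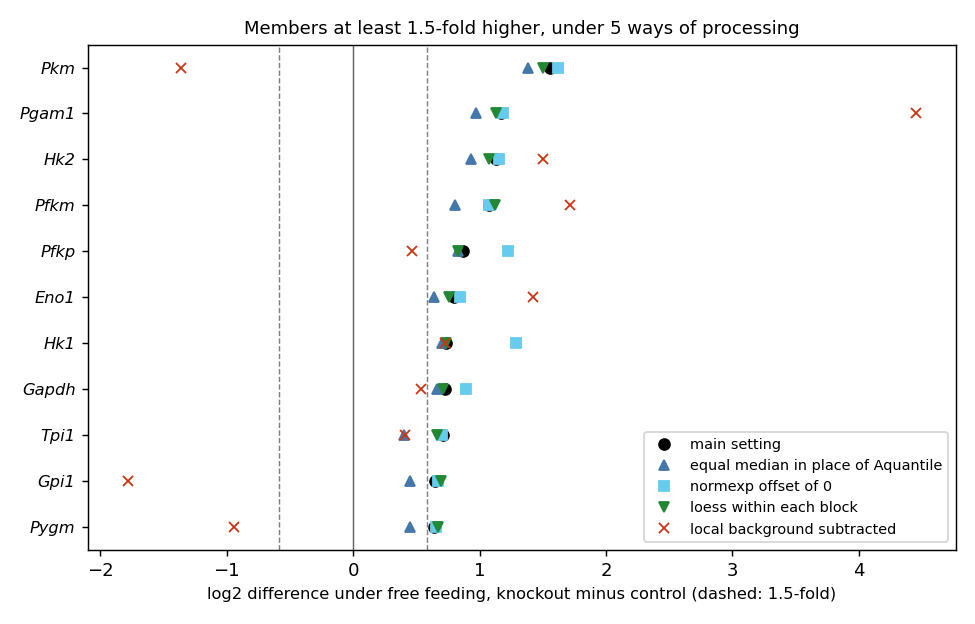
Knockout minus control log2 difference under free feeding (horizontal axis) of the 11 genes called higher, under 5 ways of processing, with dashed lines at 1.5-fold. Under 4 of them each gene lies right of 0. With the local background subtracted (crosses) Pkm, Gpi1 and Pygm lie left of 0. The cross of Pgam1 rests on a control spot, and that of Pkm on a knockout spot, hardly brighter than its surround.

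The sequences before the starts of the 4 genes that were at least 2-fold higher in the knockout AL heart are shown because all 4 genes were higher together in that heart. Each is the 250 bases before the most upstream start in RefSeq's GRCm38.p6 annotation, read 5′ to 3′ on the strand of the gene. Capitals mark ACGTG on either strand (CACGT on the strand printed), a form of the core of the element bound by hypoxia-inducible factors. Other forms of that core were neither marked nor counted. CACGTG, the E-box bound by Myc, clock and carbohydrate-response factors, contains ACGTG on both strands.
Pkm, chr9:59656326-59656575, plus strand: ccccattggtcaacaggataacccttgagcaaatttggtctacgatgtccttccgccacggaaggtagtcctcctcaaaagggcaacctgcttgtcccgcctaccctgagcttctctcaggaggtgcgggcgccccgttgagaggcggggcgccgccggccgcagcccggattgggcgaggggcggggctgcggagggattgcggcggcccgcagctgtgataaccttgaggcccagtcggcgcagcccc
Pgam1, chr19:41911621-41911870, plus strand: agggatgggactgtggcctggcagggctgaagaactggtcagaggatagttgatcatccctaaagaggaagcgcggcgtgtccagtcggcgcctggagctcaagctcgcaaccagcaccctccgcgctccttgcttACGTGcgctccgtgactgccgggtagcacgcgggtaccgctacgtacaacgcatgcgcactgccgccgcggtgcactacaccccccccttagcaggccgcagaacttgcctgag
Hk2, chr6:82774455-82774704, minus strand: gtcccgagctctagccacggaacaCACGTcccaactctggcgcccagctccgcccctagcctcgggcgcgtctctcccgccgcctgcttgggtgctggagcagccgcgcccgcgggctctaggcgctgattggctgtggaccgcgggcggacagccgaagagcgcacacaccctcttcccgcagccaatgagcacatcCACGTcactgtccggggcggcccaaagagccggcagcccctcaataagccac
Pfkm, chr15:98092339-98092588, plus strand: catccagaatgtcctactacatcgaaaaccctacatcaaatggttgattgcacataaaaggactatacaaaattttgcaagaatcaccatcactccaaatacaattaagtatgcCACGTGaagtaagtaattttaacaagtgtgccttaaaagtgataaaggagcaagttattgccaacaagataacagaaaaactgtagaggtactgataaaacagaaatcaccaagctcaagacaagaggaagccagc
The window of Pkm held no ACGTG, that of Pgam1 held 1, that of Hk2 held 2, and that of Pfkm held 1 E-box. Pkm had 2 starts in the table and Pfkm 4, and the others were not printed. The start of Pkm that was not printed did have ACGTG before it, so Pkm counts as a gene with ACGTG below. Of the 34 genes, 33 had a start in the table, with 51 starts in all. ACGTG stood before 19 of these 51 starts (37.3%) and before 16.6% of all 32851 starts. CACGTG stood before 6 (11.8%) and before 6.02% of all. Among the 11 genes called higher under AL, 5 had ACGTG before at least 1 start, as did 10 of the 22 other genes in the table. These are matches of letters and not measured binding.

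In control hearts, Pkm and Gapdh of the lower part of glycolysis, and Ugp2 of glycogen synthesis, were higher with restriction. Of the 34 genes 26 lay above 0, where 51.4% of all 12659 genes did, with a median of 0.20 (all genes 0.00). At 1.5-fold, 3 were higher (8.82%), where 0.822% of all genes and 3.58% of the genes as bright were, and none was lower, against 0.34% of all genes and 1.58% of those as bright. Pkm was higher with CR by 0.74 and Gapdh by 0.74, the 2 highest of the set. Ugp2 stood at 10.22 (AL) and 10.82 (CR) in the control pair and at 10.04 and 10.39 in the knockout pair, higher with CR by 0.61 in control hearts. Eno3, the muscle enolase, was at 0.56, Gpi1 at 0.55, Eno1 at 0.45, Pygm at 0.44, Pfkp at 0.42 and Ldhb at 0.40. The lowest values were those of Phkg1 at -0.41, Pgam1 at -0.31 and Gys1 at -0.21. With the local background subtracted Gapdh was at 0.53, Pkm at 0.34 and Ugp2 at 0.03, so none of the 3 calls held. The counts were then 2 higher and 2 lower of 34, against 1.01% and 1.28% of all genes. With a normexp offset of 0 they were 5 higher and 1 lower, against 3.61% and 2.45%. Of the 34, 4 were higher and 1 lower in the authors' deposited table (11.8% and 2.94%), close to the 8.79% and 4.54% of all genes there, and Ugp2 was at 0.51.

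In the knockout hearts the same genes were close to level between the diets. The median was 0.06 (all genes 0.00), 22 of the 34 genes lay above 0, and none was 1.5-fold higher, where 0.774% of all 12144 genes were. Pgam1 alone was called, lower with CR at -0.95, where 0.758% of all genes were called lower. Among the genes as bright 1.86% were called higher and 2.72% lower. After Pgam1 came Hk2 at -0.49, the phosphoglycerate kinase Pgk1 at -0.40 and the aldolase Aldoa at -0.38. Pkm was at 0.09, Gapdh at 0.07 and Eno3 at 0.05. The highest were Ugp2 at 0.35 and Gpi1 at 0.33. Pgam1 was called lower under all 7 alternatives run for this comparison, at -0.95 in the authors' deposited table and at -1.20 with the local background subtracted. Of these, dropping the detection filter or averaging probes could not change its value, as Pgam1 was detected throughout and had a single probe. In the authors' deposited table it was the single call among the 34, where 7.85% of all genes were higher and 6.0% lower, and it was also the single call with a normexp offset of 0 (3.16% and 3.49%). With the local background subtracted 3 of the 34 were higher and 3 lower, against 2.06% and 1.43%.

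**Figure D4:**
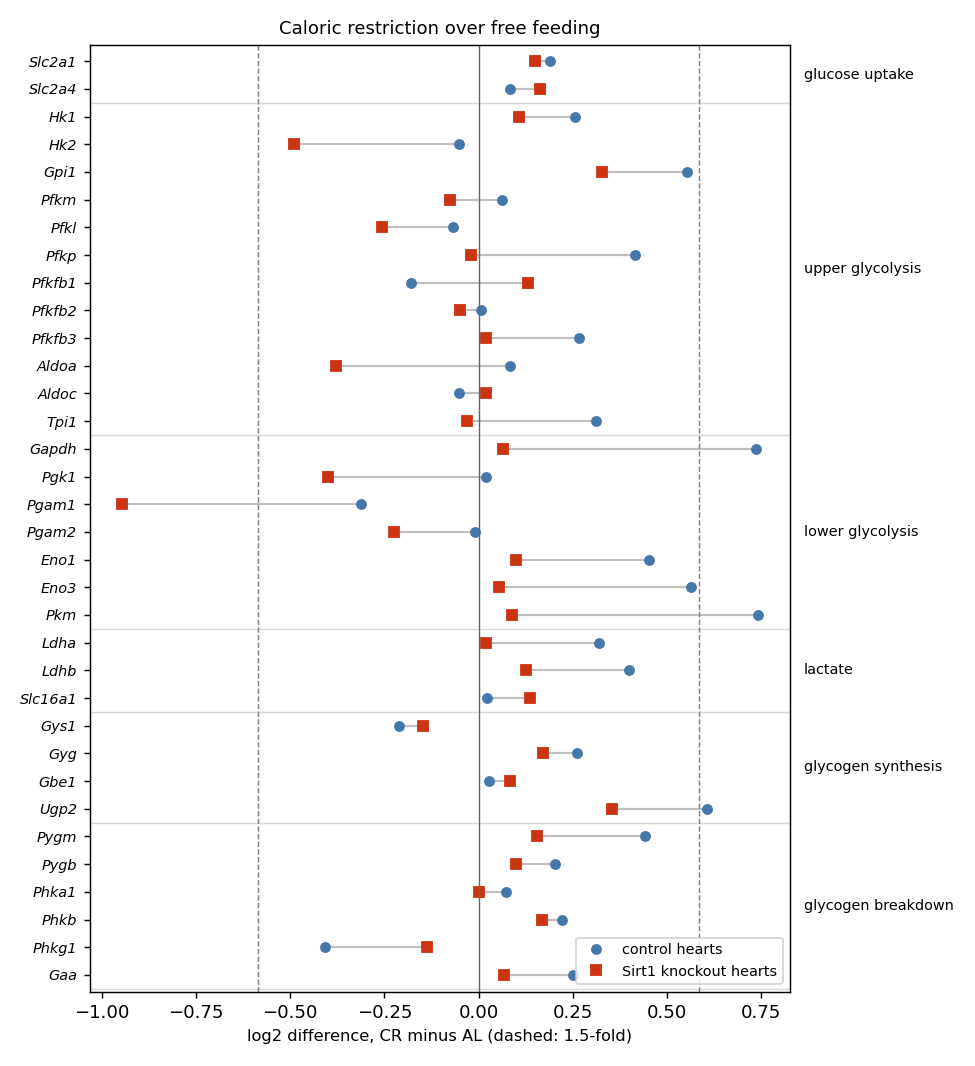
Log2 difference of CR minus AL (horizontal axis) for each of the 34 genes in control hearts (circles) and knockout hearts (squares), with dashed lines at 1.5-fold. Pkm, Gapdh and Ugp2 pass 1.5-fold in control hearts, and Pgam1 passes it downward in knockout hearts.

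The response to restriction was thus lower in the knockout pair for most of the set. The difference of the responses equals knockout over control under CR minus that under AL, so it restates that the genotypes were closer under restriction. The control AL heart, the lowest for 24 of the 34 genes, enters it. That same heart enters CR over AL in control hearts and knockout over control under AL, so these results are not separate evidence. Of the 34 genes 27 had a knockout response below the control response, where 51.0% of all 11701 genes did, with a median difference of -0.20 (all genes -0.00). All 7 genes of the lower part of glycolysis lay below 0, from -0.22 for Pgam2 to -0.67 for Gapdh. At 1.5-fold, 3 genes were called lower, Gapdh (-0.67), Pkm (-0.65) and Pgam1 (-0.64), which is 8.82% of the set against 0.521% of all genes and 1.58% of the genes as bright. None was called higher, against 0.393% of all genes and 0.573% of those as bright. Eno3 at -0.51, Aldoa at -0.46, Hk2 at -0.44 and Pfkp at -0.44 followed, and the highest values were those of Pfkfb1 (0.31), Phkg1 (0.27) and Slc16a1 (0.12). The 3 calls had different shapes. For Gapdh and Pkm the control AL heart was the low one, at 7.73 and 9.28, while the diets hardly differed in the knockout hearts; for Pgam1 the knockout AL heart was the high one at 11.36. Glucose uptake and glycogen synthesis had medians of 0.02 and -0.02. With the local background subtracted, the Pkm difference turned to 1.14 and that of Eno1 was 0.54, while that of Gapdh was -0.56. The Pkm value rests on a knockout AL spot, and that of Pgam1 on control spots, that hardly exceeded their surround. The median over the 34 was then -0.097. With loess within each block of the array, and in the authors' deposited table, Gapdh was the call among these 3 that remained. The authors' deposited table held 3 genes of the 34 called lower (8.82%) and none called higher, where 7.32% and 5.97% of all genes were, so the share lower was near that of all genes. With a normexp offset of 0 there were 5 lower and 0 higher (3.71% and 3.32% of all genes), with loess within each block 1 and 0 (0.487% and 0.419%), and with the local background subtracted 3 lower and 4 higher (2.2% and 3.27%).

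Isozymes of a step were often not equally far apart. Under AL the difference was 1.17 for Pgam1 and 0.38 for Pgam2, 0.80 for Eno1 and 0.40 for Eno3, 0.51 for Aldoa and 0.04 for Aldoc, the brain aldolase, and 0.64 for Pygm and 0.14 for Pygb, the brain phosphorylase. Near-identical paralogues and pseudogenes can share a probe's signal, and the probe sequences were not analysed here. Aldoa was the gene with a second probe. The brighter one was at 0.08 for CR over AL in control hearts and -0.38 in knockout hearts, and the other at 0.70 and 0.22. Their difference of the responses was nearly equal at -0.46 and -0.48, but knockout over control was 0.51 and 0.24 under AL and 0.05 and -0.24 under CR. The CR over AL values of these 2 probes of 1 gene thus lay 0.61 apart on the control array and 0.60 apart on the knockout array.

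Other genes of glucose metabolism, in lists drawn up by function, were mostly less far apart, and the difference between lists was not tested. Many of these genes were dim, and the normexp offset draws differences of dim spots towards 0. In the control AL heart Slc2a3 was at 6.04, Hkdc1 at 5.96 and Gys2 at 6.00, near Slc16a4, detected in no heart, at 5.87. The median signal of the main gene set was 10.08. Some listed genes were bright, such as Bsg at 12.48 and Mdh1 at 14.46. The part of dimness in the smaller differences was not tested. Of 21 further genes of glycolysis and glucose or lactate transport, 19 were on the array, 16 were compared under AL, none was called in any of the 5 comparisons, and the median of knockout over control was 0.04 under AL and -0.02 under CR. Many of them are forms typical of other organs. Of 18 further glycogen genes 13 were on the array and 12 were compared; 11 of the 12 lay above 0 in the knockout under both diets (medians 0.13 and 0.14), with 1 call, the phosphoglucomutase listed as Pgm2 at 0.94 under AL. Of 16 genes of the pentose phosphate and hexosamine branches 14 were compared (medians 0.05 and -0.01), and only sorbitol dehydrogenase (Sord) was called, at -0.63 under AL. Of 14 genes of gluconeogenesis and of shuttles into the mitochondrion 12 were compared. Among these the aspartate aminotransferase Got1 was higher in the knockout by 1.03 and 0.63, the pyruvate carrier subunit Mpc2 was at -0.67 under AL, and the muscle fructose bisphosphatase Fbp2 was at -1.12 under CR, with a CR over AL value of -0.77 in knockout hearts and -0.04 in control hearts. The Fbp2 difference of the responses was -0.73. With the local background subtracted, CR over AL of Fbp2 was -0.52 in knockout hearts and 0.04 in control hearts, and its difference of the responses was -0.56. These calls thus did not hold, while its knockout over control call under CR did, at -0.84.

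Among 21 regulators of glucose use, 19 were compared under AL and 20 under CR, with medians of 0.06 under both. Txnip, which restrains glucose uptake and is itself induced by glucose, was the one farthest apart. It stood at 9.65 (AL) and 10.03 (CR) in the control pair and at 11.59 and 11.76 in the knockout pair. The knockout hearts lay above the control hearts by 1.93 and 1.72, or by 0.23 and 1.26 with the local background subtracted. Arrdc4, its relative with like regulation, was at 0.04 and -0.09. Prkaa2, the catalytic AMPK subunit of muscle, was higher by 0.61 under AL, and the insulin-signalling kinase Akt2 was lower at -0.65.

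Markers of cell types moved between the genotypes beside these genes. Markers of fibroblasts were at least 1.5-fold higher in the knockout AL heart in 4 of 6 (median 0.63), where 2.58% of all genes were. In the knockout CR heart 1 of 6 was (median 0.24), against 1.45% of all genes. With the local background subtracted their medians were 0.27 and 0.13. Under AL they then ran from Lum at 1.77, Col1a1 at 0.62, Col1a2 at 0.43 and Pdgfra at 0.11 to Tcf21 at -0.09 and Dcn at -1.11. Without that subtraction the summed log2 level of the fibroblast markers ran from 11.25 to 11.52 in control hearts and from 11.53 to 11.61 in knockout hearts. Atrial markers were split, with 2 called lower and 1 called higher in the knockout under each diet. Of all genes, 1.78% were called lower and 2.58% higher under AL, and 1.09% and 1.45% under CR. The atrial myosin light chain Myl7 was at 10.26 and 10.32 in control hearts and at 6.31 and 6.26 in knockout hearts. Myl4 was lower in the knockout at -2.47 under AL and -2.71 under CR, whereas Nppa was higher by 0.99 and 1.95. With the local background subtracted Nppa was at 0.89 and 0.51, so its call under CR did not hold, while Myl7 and Myl4 kept theirs. The summed level of 5 atrial markers was 11.70 and 11.75 in control hearts against 11.45 and 12.33 in knockout hearts. Summed cardiomyocyte markers were at 17.94 and 17.81 against 18.11 and 17.84. Their median for knockout over control was 0.17 under AL and 0.10 under CR. With the local background subtracted these medians were 0.82 and 0.72. Under AL 2 of 10 were called higher, Myh6 and Ckmt2 (0.70), against 2.58% of all genes, and none lower. For Myh6, the alpha myosin heavy chain, the control AL heart was the low one, as for Gapdh and Pkm. Myh6 was at 12.45 (AL) and 13.74 (CR) in the control pair and at 13.96 and 14.23 in the knockout pair. Its knockout over control difference was 1.51 under AL and 0.49 under CR, and its difference of the responses was -1.02. With the local background subtracted these 3 values were 1.05, 0.84 and -0.21. For CR over AL in control hearts, Myh6 was the 1 of 10 cardiomyocyte markers called higher (0.822% of all genes), and 3 were called lower (0.34%). Those were Myl2 at -0.62, Myl3 at -0.67 and Mb at -0.72, which stood at -0.69, -0.77 and -0.68 in knockout hearts. Summed markers of smooth muscle and pericytes were at 10.29 and 10.45 against 10.69 and 10.66, with 1 of 6 called higher under each diet, the pericyte gene Rgs5 at 1.23 and 0.95 (-0.97 and -0.99 with the local background subtracted). Of 12 skeletal muscle markers on the array the summed level was 11.06 and 11.03 in control hearts and 10.82 and 10.71 in knockout hearts. That sum was led by Myl1, at -0.77 under AL and -1.24 under CR, while 6 of the 10 compared under AL and 6 of the 8 under CR lay above 0 (medians 0.07 and 0.09), with Casq1 the highest at 0.31 and 0.47. Fewer cells of a type and less RNA per cell cannot be told apart in such heart samples, and the part of the makeup of the samples in the results was not tested.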

How the data were processed

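RNA of 4 hearts was measured on 2 arrays. Per the file headers, the scanner files deposited give the median intensity of each spot and of its surroundings at 635 and 532 nm; the scanner software and any genome build were not given in the sources used. Per the labels, the authors' deposited table gives normalized log2 ratios (CR over AL). All but 1 of its 17405 and 1 of its 16555 values lay within 0.001 of log2 of the blank-subtracted signals (532 over 635 nm) minus a constant, which settled scale and direction; its columns are centred near 0 (medians -2.885e-06 and 8.079e-05).

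Spot intensities without the local background were corrected with normexp (offset 50), normalized by loess within arrays (control spots and flagged spots at weight 0) and by Aquantile between them, with limma 3.58.1 in R 4.3.3. These steps were run on simulated arrays with known folds between the channels of an array. Known folds between arrays and bright surrounds were not simulated, so that run does not bear on knockout over control. A spot was detected above the trimmed blank mean plus 2 SD, which held for 74.0% to 80.7% of spots in a channel. The number of arrays limits the precision. Probes were named through GEO's platform annotation, with symbols updated through the GRCm38.p6 gene table (12622 current, 3947 through a synonym, 62 unmatched, 6842 probes unnamed), and the brightest probe of a gene was used. Local background subtraction, normexp offset, loess type, array scaling, detection filter, probe choice and the authors' table were the alternatives. All members were to be named, with 4 levels for those called, and up to 4 called genes of each other list. The members and lists were chosen with earlier results of these data known.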

Additional observations from a re-analysis of the deposited data

Results flagged for a closer look

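Aldoa and Pfkfb1 were picked out because the control and knockout pairs moved in opposite directions with restriction, each by more than the spread between spots of a positive control. Aldoa was at 0.082 for CR over AL in control hearts and at -0.38 in knockout hearts, though its second probe lay above 0 in both, and in the authors' deposited table the gene lay below 0 in both (-0.13 and -0.29). Pfkfb1 was at -0.18 in control hearts and at 0.13 in knockout hearts, but at -0.67 and -0.071 with the local background subtracted. With 1 heart in each condition neither difference between the pairs was tested.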

How the results depend on the processing

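Over the 5 comparisons 22 values of the 34 genes were past 1.5-fold. All 22 were recomputed under 6 alternatives, the 15 between genotypes also under the 2 other array scalings, and the 7 between diets or responses also in the authors' deposited table. Dropping the detection filter or averaging the detected probes could not move them, since each called gene was detected in every heart and had a single probe. Under the other alternatives the 22 values kept their direction, except 5 values with the local background subtracted, where 10 stayed past 1.5-fold. There knockout over control under AL turned to -1.78 for Gpi1, -1.37 for Pkm and -0.94 for Pygm, that under CR to -0.22 for Pkm, and the difference of the responses to 1.14 for Pkm. The surround of the Pkm spot was 98.4% of the spot in the knockout AL channel, so little signal was left there. With the local background subtracted the medians over the 34 genes were 0.087 (CR over AL in control hearts), -0.049 (in knockout hearts), 0.28 (knockout over control, AL), 0.057 (CR) and -0.097 (difference of the responses). Genes 1.5-fold lower numbered 2 for CR over AL in control hearts, 3 in knockout hearts (3 higher), 8 for knockout over control under AL and 6 under CR (11 higher), and 4 were higher in the difference of the responses. With a normexp offset of 0, 5 genes were higher and 1 lower for CR over AL in control hearts, 5 lower in the difference of the responses and 1 lower for knockout over control under AL. Loess within each block left 1 gene lower in the difference of the responses. In the authors' deposited table the control median was 0.13, with 1 gene lower. Scaling the arrays to an equal median gave medians of 0.23 (AL) and 0.12 (CR) for knockout over control, with 2 genes higher and 1 lower under CR. The cause was not tested. No paired analysis was possible because each condition holds 1 heart. Dim spots limit the rest: on signals near the blank spots the offset draws differences towards 0.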
